A study of Arabidopsis with 6 samples.

Results

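A set of 111 genes had transcript levels that were at least 2-fold lower within 0.5 h of light in both genotypes of an Arabidopsis de-etiolation series. They are 111 of the 18441 genes that reached an FPKM of 1 in at least 1 of the 6 libraries, out of 19763 listed. FPKM is read abundance scaled for transcript length and library size, and the term 2-fold means a difference of at least 1 on the log2(FPKM + 1) scale throughout. A gene was taken when its 0.5 h library minus its 0 h library was at most -1 in the wild type (WT) and also in RNAi-21. The genes were therefore selected on these 0.5 h minus 0 h differences, which are given below as a description with no test.

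The 6 libraries came from WT seedlings and from seedlings labelled PCD8 RNAi-21 mutant, an RNA interference line against PCD8, a chloroplast protein linked to tetrapyrrole synthesis. Both genotypes were raised on half-strength MS medium with 0.7% agar at 22 °C, were 4 days in darkness, and were then sampled at once (0 h) or once they had been lit for 0.5 h or for 2 h, at 120 μmol per m2 per s. RNAi-21 is a single line, and the promoter of its RNA interference construct is not given in the sources used here. Each group was 1 library, so no value has a replicate error, and with no library from seedlings left in darkness until the later times, an effect of light and one of time alone cannot be told apart. The tissue is labelled leaf, yet all 8 root markers were listed, above 0 in every library, with a summed FPKM of 4280, 3760 and 5270 at 0, 0.5 and 2 h in WT and of 6310, 6000 and 7200 in RNAi-21, higher in RNAi-21 at each time. All 5 green leaf markers were also listed, at a summed 1700 to 4270. The 6 seed reserve markers summed to 184 in the WT library at 0.5 h and to between 6.12 and 41.7 in the other libraries, and no marker of these lists, of xylem or of stomata is among the 111 genes. The 5 xylem markers listed, of 6, summed to 389, 327 and 186 in WT and to 380, 286 and 158 in RNAi-21, so that they were lower at each later time in both genotypes. The part of tissue composition in the results, in the decrease with light as in the genotype difference, was not tested, and in whole-tissue RNA fewer cells of a type and less RNA per cell cannot be told apart. The transcript of PCD8 was not analysed here, so the RNAi-21 labels were not checked against their target.

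In darkness, a seedling elongates its hypocotyl under the PHYTOCHROME-INTERACTING FACTORS (PIFs), bHLH proteins that accumulate in the nucleus and activate growth genes together with auxin, gibberellin and brassinosteroid. Light turns phytochrome into its active form, which leads to the breakdown of PIFs. Many of their targets are auxin-inducible genes with short-lived transcripts. Among these, SMALL AUXIN UP RNA (SAUR) genes encode short proteins, several of which inhibit PP2C.D phosphatases and so keep the plasma membrane proton pump active during cell expansion.

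The SAUR family held 30 of the 111 genes. A further 27 fell in small groups, with 2 Aux/IAA genes, 4 class II homeodomain-leucine zipper genes, 6 genes of HLH proteins and relatives, 3 gibberellin genes, 3 ethylene genes, 5 RTFL peptide genes and 4 genes of the cell wall and its growth. Of all genes tested, 24 are in the Aux/IAA family and 17 in the RTFL family. Another 11 of the 111 genes have a symbol and other functions, and 43 have no symbol in the reference table. By biotype, 108 are protein-coding, 1 is annotated as a tRNA and 2 are unnamed loci of the authors' quantification.

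In darkness the median FPKM of the 111 genes was 18.6 for the WT library and 17.0 for RNAi-21. At 0.5 h their medians were 4.09 and 5.3, and at 2 h they were 2.36 and 4.15. Their summed FPKM went from 3644 at 0 h to 1130 at 0.5 h and 725.5 at 2 h in WT, and from 3610 to 1186 and 1025 in RNAi-21. The median gene stood at 27.3% of its dark level after 0.5 h and at 13.3% after 2 h in WT, and at 30.0% and 19.9% in RNAi-21. The 0.5 h differences had a median of -1.56 in WT and -1.52 in RNAi-21, where the medians of all genes tested were 0.01 and -0.02. Of all genes tested, 1.1% were 2-fold lower at 0.5 h in WT, 0.906% in RNAi-21 and 0.602% in both, which is the rule itself.

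**Figure D1:**
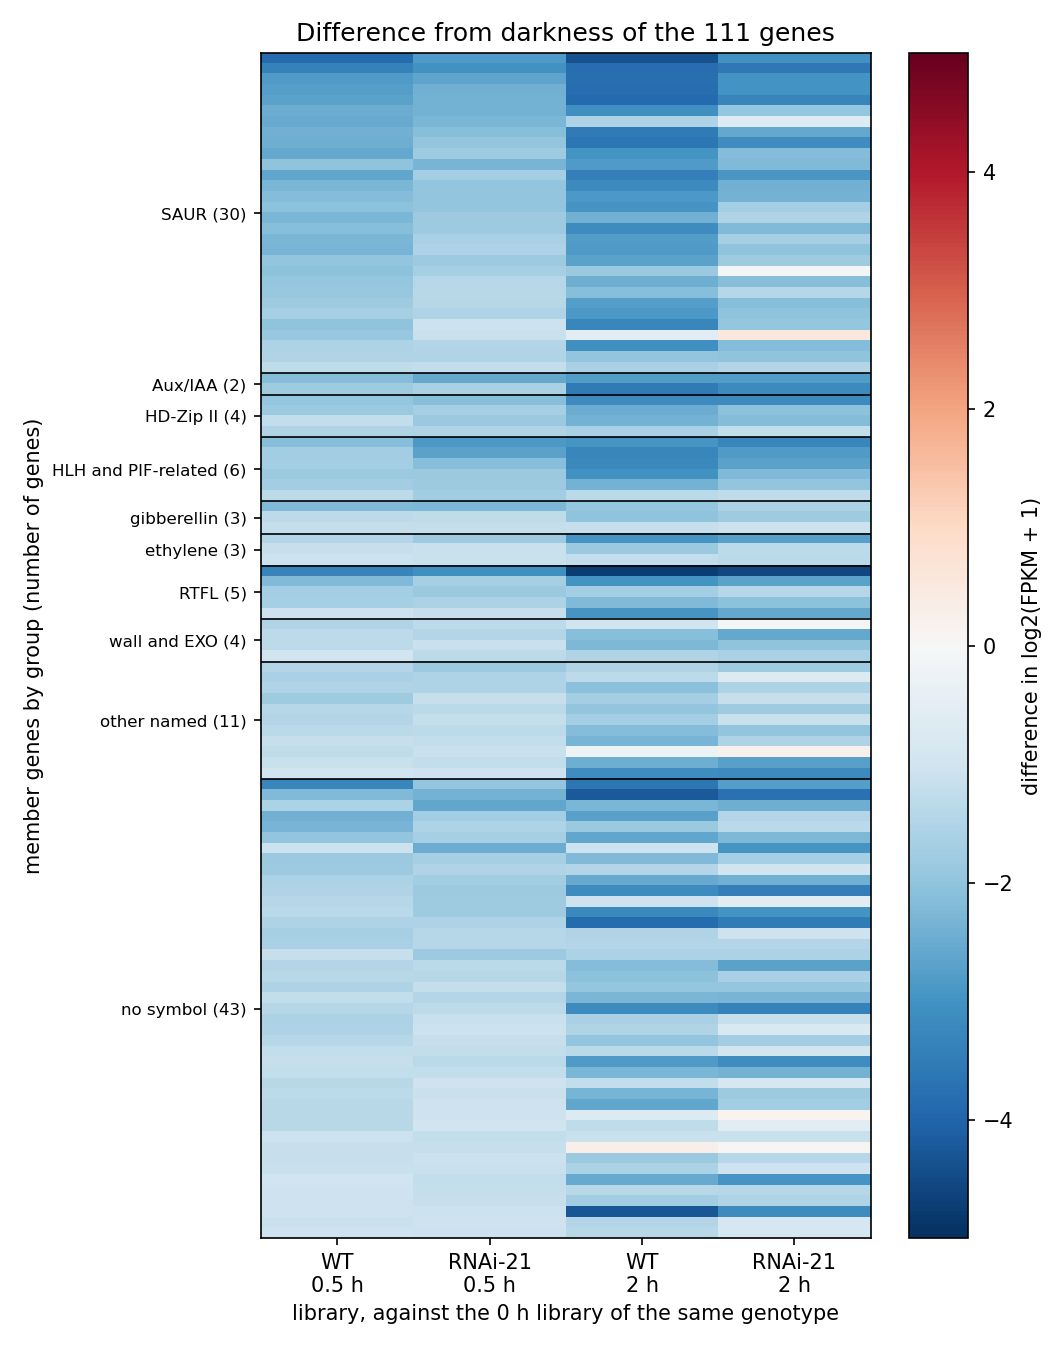
Each row is 1 of the 111 genes, ordered by group and then by the size of the 0.5 h difference, and each column is a light library minus the 0 h library of the same genotype in log2(FPKM + 1), with blue for lower. The 0.5 h columns are at or below -1 by the rule, and at 2 h 95 of the 111 genes were still at or below -1 in both genotypes.

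The nearest genes inside the threshold were AT5G61570 (-1.398 in WT and -1.005 in RNAi-21), CSLC04 (-1.012 and -1.297) and PDC3 (-1.013 and -1.053). Just outside it were ARP1 (-1.0 when rounded, and -1.419), AT1G62620 (-0.998 and -1.009) and BEE3, a bHLH gene of brassinosteroid response (-0.996 and -0.996). A further 91 genes passed in WT only and 56 in RNAi-21 only. Those 91 had a median 0.5 h difference of -0.66 in RNAi-21, and those 56 had one of -0.59 in WT.

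The SAUR genes stood at the front of the set. SAUR19 (AT5G18010) had an FPKM of 72.7, 4.07 and 2.58 at 0, 0.5 and 2 h in WT and of 63.5, 7.94 and 6.81 in RNAi-21. SAUR22 (AT5G18050) read 39.7, 2.90 and 1.90 in WT and 42.5, 4.33 and 2.64 in RNAi-21. For both genes all 4 light libraries lay far below both dark libraries, and at each light time RNAi-21 was above WT. SAUR23 (AT5G18060) went from 34.7 to 3.97 and 1.61 in WT and from 37.2 to 5.10 and 3.87 in RNAi-21. SAUR21 (AT5G18030) went from 55.2 to 7.34 and 3.0 in WT and from 49.6 to 8.55 and 5.36 in RNAi-21. These genes belong to the SAUR19 subfamily, whose products promote cell expansion, and as their sequences are almost the same, reads may be divided wrongly between them and the value of each copy is uncertain.

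Outside that subfamily, SAUR50 (AT4G34760) had the highest dark level of the SAUR genes in the set, 106 in WT and 114 in RNAi-21. It was at 26.2 and 15.9 at 0.5 and 2 h in WT and at 31.6 and 32.8 in RNAi-21. SAUR25 (AT4G13790) went from 13.7 to 1.29 in WT and was listed at 0 at 2 h, and in RNAi-21 it read 13.6, 1.86 and 0.48. SAUR26 (AT3G03850) went from 22.3 to 3.12 and 1.78 in WT and from 21.6 to 3.38 and 4.96 in RNAi-21. SAUR26 was thus lower at 2 h than at 0.5 h in WT and higher in RNAi-21. Over the 30 SAUR genes the median 0.5 h difference was -2.22 in WT and -1.81 in RNAi-21, against -1.43 in each genotype for the 81 genes outside the family.

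Of the 30 SAUR genes, 24 lie in 7 tandem arrays, counted as 3 or more SAUR loci at most 3 protein-coding positions apart in the RefSeq TAIR10.1 gene order. The array on chromosome 5 that runs from SAUR19 to SAUR24 had all 6 of its loci in the set. On chromosome 1, 4 of the 5 loci from SAUR61 to SAUR65 and all 3 loci of the neighbouring array with SAUR66 were in it. The array on chromosome 3 contributed 4 of its 5 loci, SAUR26 to SAUR29, and those on chromosome 4 contributed 3 of 7 and 2 of 4, and on chromosome 2 there were 2 of 3. SAUR73 on chromosome 3 and SAUR2 and SAUR13 on chromosome 4 were not tested. The loci tested were thus 4 in the chromosome 3 array and 6 and 3 in those on chromosome 4. Arrays were not uniform, since the chromosome 4 array with SAUR15 and SAUR16 also holds SAUR14 (AT4G38840), which was at 23.0, 15.7 and 27.9 in WT and at 20.8, 15.4 and 58.6 in RNAi-21. SAUR14 was thus above its dark level at 2 h, and SAUR15 and SAUR16 were below theirs. Over the whole set, 25 of 108 protein-coding members, 23.1%, had another member as the next protein-coding gene on either side, compared with 0.662% of the other protein-coding genes tested. They formed 11 runs of adjacent members, and 8 of these were made of SAUR genes. Adjacent copies of a family share sequence, so these genes are not independent cases. The locus annotated as a tRNA gene, AT5G18015, is numbered between SAUR19 and SAUR20 and read 11.2, 0.26 and 0 in WT and 9.77, 1.73 and 0.60 in RNAi-21. The unnamed-by-symbol gene AT4G38820, at 28, 5.36 and 0.61 in WT and 30.0, 5.05 and 1.34 in RNAi-21, overlaps the SAUR13 locus, and since use of strand in the counting is not given in the sources used here, reads of overlapping loci cannot be told apart. In all, 16 of the 111 genes overlap another locus of the reference table.

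**Figure D2:**
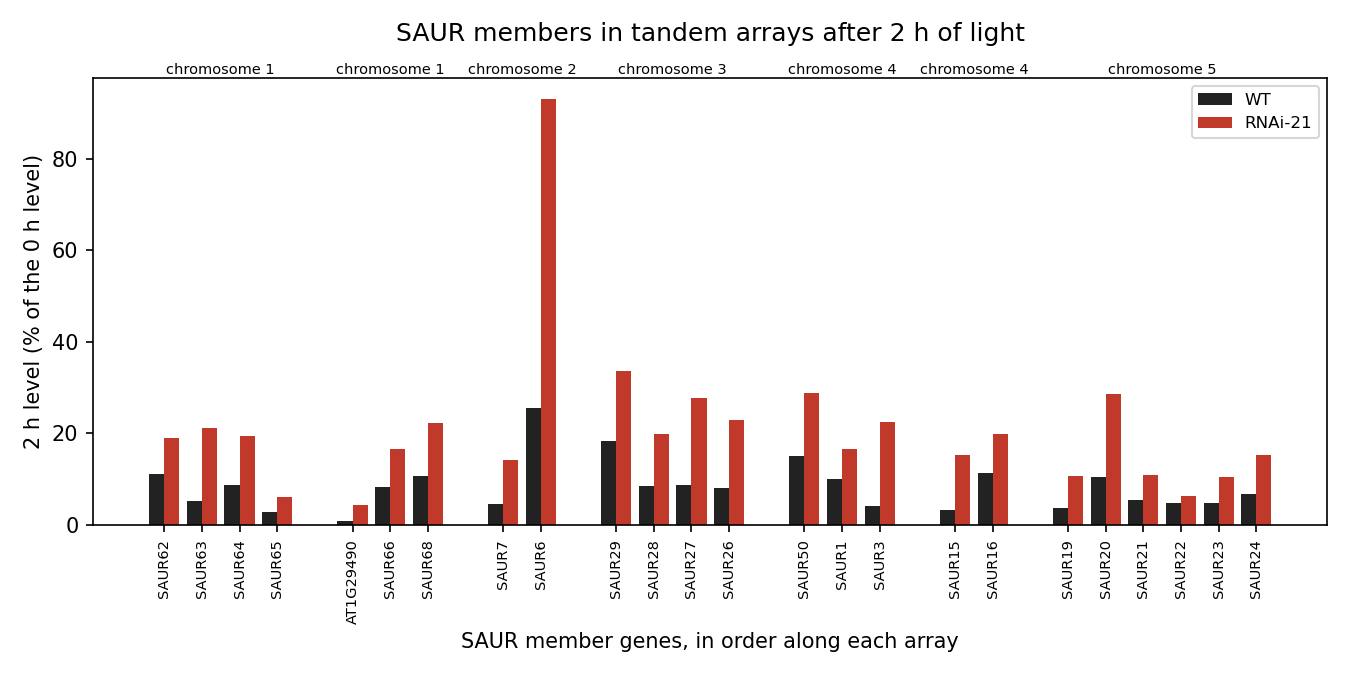
Bars give the 2 h FPKM as a percentage of the 0 h FPKM of the same genotype for the 24 SAUR genes of the set that lie in tandem arrays, in gene order and labelled by chromosome. WT bars (black) are below RNAi-21 bars (red) at every gene, and SAUR6 stands out at 25.6% in WT and 93.1% in RNAi-21.

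Genes of the set were also short. Their median gene length was 1373 bases, over the 109 with a length in the RefSeq table, against 2396 over 18264 genes tested. The 30 SAUR genes had a median of 801 bases and the other 79 one of 1717. FPKM divides by length, so a short transcript rests on fewer reads at the same FPKM, and the depth behind these values is unknown.

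The Aux/IAA family encodes short-lived repressors of auxin response that are themselves induced by auxin, and it contributed IAA19 and IAA29. IAA19 (AT3G15540) had an FPKM of 141, 40.1 and 11.3 at 0, 0.5 and 2 h in WT and of 159, 50.2 and 16.6 in RNAi-21. IAA29 (AT4G32280) read 17.9, 3.21 and 1.72 in WT and 14.8, 1.66 and 1.30 in RNAi-21. Both were lower at 2 h than at 0.5 h in each genotype, IAA19 by a further 1.74 in WT and 1.54 in RNAi-21 on the log2 scale.

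Class II homeodomain-leucine zipper proteins are transcription factors of the shade response whose genes are under phytochrome control. HB-2, also called ATHB2 (AT4G16780), read 64.2, 16 and 6.17 in WT and 57.5, 12.4 and 5.48 in RNAi-21. HAT1 went from 49.3 to 13.1 and 8.07 in WT and from 42.6 to 12.8 and 9.55 in RNAi-21. HAT3 went from 18.8 to 7.48 and 2.85 in WT and from 18.5 to 4.32 and 3.33 in RNAi-21. All 3 genes, and HB4 at a dark level of 4.37 in WT and 3.11 in RNAi-21, were 2-fold below darkness at 2 h in both genotypes. Genes of this class outside the set did not all follow that course. HB17 was above darkness at 2 h by 2.03 in WT and 2.04 in RNAi-21, and HAT9 by 1.52 and 1.23. HAT22 was near its dark level (0.18 and -0.24), and HAT2, HAT14 and HB18 were below theirs. Homeobox genes of other classes in the set were HB-3 and the zinc finger homeodomain gene HB28.

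The group of HLH proteins and relatives held 6 genes. PIL1 (AT2G46970), a PIF-like bHLH gene used as a marker of shade, went from 11.2 to 1.78 and 0.59 in WT and from 13.8 to 0.99 and 0.53 in RNAi-21. PAR1 (AT2G42870), an HLH protein that restrains PIF-driven growth, was at 41.4, 11.8 and 3.41 in WT and at 51.1, 7.07 and 6.32 in RNAi-21. PRE1 (AT5G39860), a growth-promoting HLH gene of the gibberellin and brassinosteroid responses, was at 16.6, 4.44 and 0.89 in WT and at 15.5, 2.77 and 1.60 in RNAi-21. For PAR1 and PRE1 the order of the genotypes differed between the light times, with RNAi-21 lower at 0.5 h and higher at 2 h. KDR, also called PRE6, went from 65.8 to 19.2 and 12.0 in WT and from 65.8 to 17.8 and 16 in RNAi-21. P1R3 and HBI1, a bHLH protein that promotes cell elongation, completed this group, and HBI1 stayed at 37.0% of its dark level in WT and 40.3% in RNAi-21 at 2 h. The group thus held growth promoters and a growth inhibitor alike. All 6 of its genes were lower in RNAi-21 than in WT at 0.5 h, and 5 of 6 were higher at 2 h. The rule used the 0.5 h libraries. In the whole set, RNAi-21 was above WT for 61.3% of genes at 0.5 h and for 82.9% at 2 h. The shares of all genes tested were 45.5% and 47.1%. A higher level at 2 h was thus common in the set and not particular to this group, and these counts have no test.

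The gibberellin genes covered synthesis and signalling. GA20OX1 (AT4G25420), which makes gibberellin precursors, had an FPKM of 6.40, 0.61 and 0.96 in WT and of 6.02, 0.50 and 1.33 in RNAi-21. GA3OX1 (AT1G15550), which performs the last step to active gibberellin, read 9.61, 3.69 and 3.76 in WT and 12.8, 5.07 and 5.51 in RNAi-21. GAI (AT1G14920), a DELLA repressor of gibberellin response, read 37.1, 14.3 and 8.32 in WT and 28.9, 11.4 and 7.80 in RNAi-21. Both synthesis genes were above their 0.5 h level at 2 h in each genotype, GA3OX1 only slightly, whereas GAI was lower still.

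In the ethylene group, ACS5 (AT5G65800), an ACC synthase, was at 9.44, 2.73 and 0.36 in WT and at 11.0, 2.38 and 0.82 in RNAi-21. ACS8, of the same enzyme family, was near the filter, at 1.37 in dark WT and 1.57 in dark RNAi-21, and at most 0.18 in the light libraries. ESE3, an ethylene-inducible gene, was at 8.70, 3.36 and 1.68 in WT and at 6.91, 2.61 and 2.24 in RNAi-21.

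RTFL genes, also called DEVIL, encode small peptides that restrict cell proliferation or polar expansion when overexpressed. RTFL21 (AT1G67265) went from 65.5 to 5.53 and 1.48 in WT and from 62.2 to 6.57 and 1.66 in RNAi-21, and at -4.75 and -4.57 it had the lowest 2 h difference of the 111 genes in each genotype. RTFL16 (AT3G25717) was the most abundant of the group, at 112, 53.4 and 13.7 in WT and at 116, 51.1 and 19.0 in RNAi-21. RTFL13, RTFL18 and RTFL1 had dark levels from 2.40 to 9.19 in WT and from 2.66 to 7.98 in RNAi-21, and RTFL18 was listed at 0 in RNAi-21 at 0.5 h.

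Among wall genes, XTH30 (AT1G32170), a xyloglucan endotransglucosylase, had the highest FPKM of the set in every library except RNAi-21 at 2 h, where EXO was higher. Its FPKM was 499, 201 and 106 in WT and 495, 227 and 120 in RNAi-21. CSLC04, a synthase of the xyloglucan backbone, read 41.6, 20.1 and 14.1 in WT and 51.8, 20.5 and 16 in RNAi-21. LRX2, an extensin-type wall protein, read 20.4, 7.63 and 3.88 in WT and 19.1, 6.33 and 2.40 in RNAi-21. EXO (AT4G08950), a cell-expansion protein of brassinosteroid response, followed another course, at 177, 61.9 and 87.3 in WT and at 154, 61.0 and 146 in RNAi-21. XTH30, CSLC04 and LRX2 were lower at 2 h than at 0.5 h in both genotypes, and EXO was higher.

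Other named genes included the growth-regulating factor GRF7 (7.81, 3.13 and 0.61 in WT, 9.44, 3.40 and 0.60 in RNAi-21) and the pyruvate decarboxylase PDC3 (12.8, 5.85 and 0.61 in WT, 12.1, 5.33 and 0.46 in RNAi-21). PKS4, a phytochrome-binding protein of phototropism, was at 11.2, 2.99 and 4.00 in WT and at 9.69, 2.65 and 5.64 in RNAi-21. ST2A, a hydroxyjasmonate sulfotransferase, was at 47.9, 17.0 and 16.3 in WT and at 48.0, 13.0 and 13.5 in RNAi-21. GRF7 and PDC3 were much lower again at 2 h, PKS4 stood above its 0.5 h level, and ST2A was almost flat between 0.5 and 2 h. Of the genes without a symbol, AT4G25260 had the highest dark level, with 142, 47.8 and 9.02 in WT and 136, 45.9 and 11.3 in RNAi-21. AT5G44260, which carries the synonym TZF5 for a tandem CCCH zinc finger protein, went from 33.4 to 11.2 and 2.84 in WT and from 27.4 to 7.10 and 1.66 in RNAi-21.

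**Figure D3:**
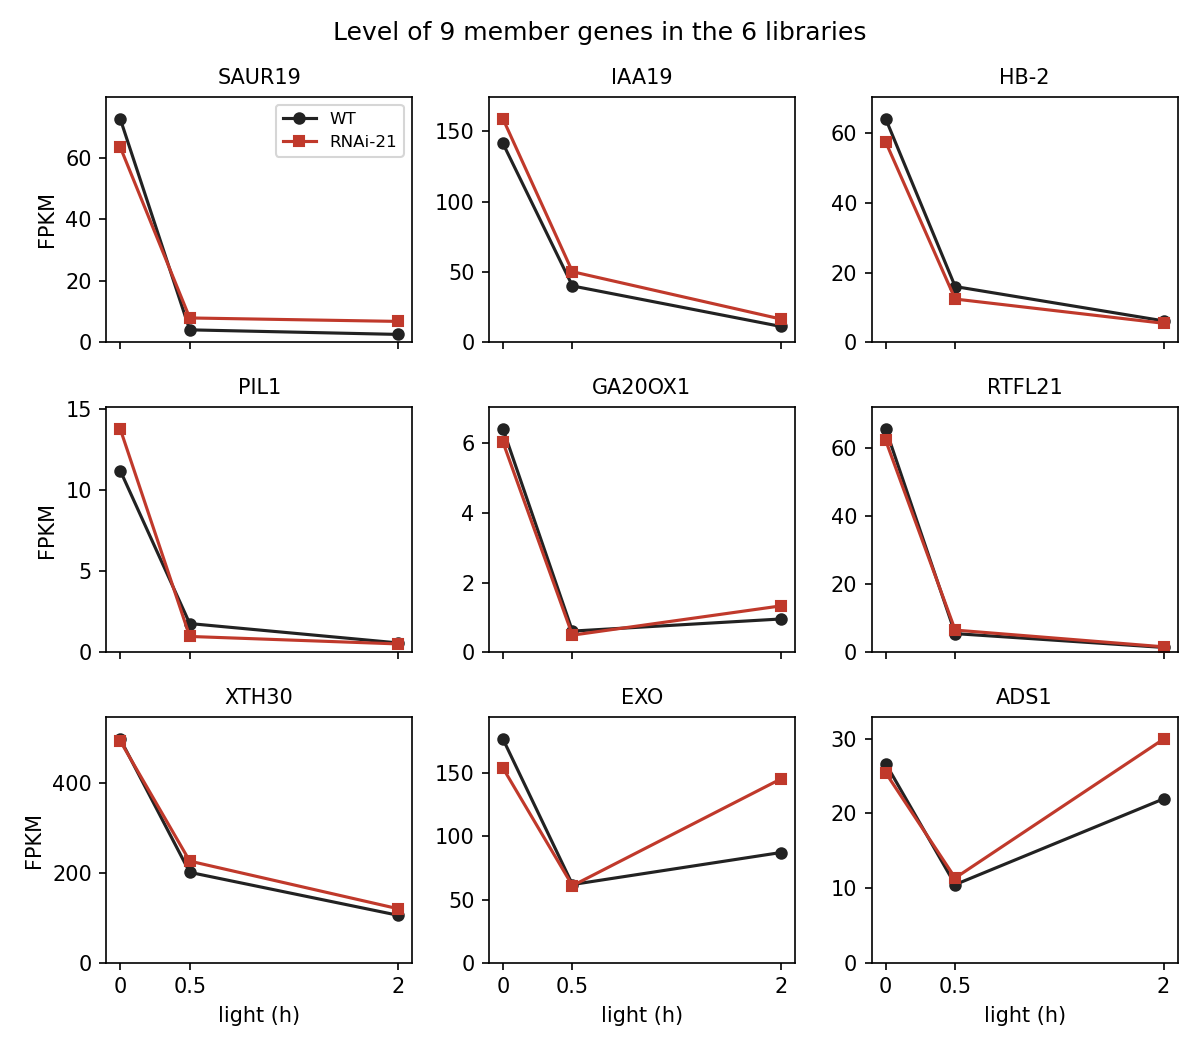
FPKM of 9 genes of the set (linear axes from 0) against hours of light, with WT in black and RNAi-21 in red and 1 library per point. SAUR19, IAA19, HB-2, PIL1, RTFL21 and XTH30 lay lowest at 2 h, whereas GA20OX1, EXO and ADS1 had their lowest value at 0.5 h in both genotypes.

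The next question was whether the levels recovered by 2 h. For nearly all genes they did not. At 2 h, 107 of the 111 genes were still 2-fold below darkness in WT and 95 in RNAi-21, and the same 95 were so in both. Over all genes tested, 4.56% were 2-fold lower at 2 h in WT, 4.37% in RNAi-21 and 3.04% in both. The median 2 h difference from darkness was -2.29 in WT and -1.95 in RNAi-21, against -0.02 and -0.04 for all genes tested. Because the genes were taken for being high at 0 h and low at 0.5 h, any difference of the 2 h library from either carries that choice, and these values have no test.

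The course after 0.5 h was in most cases a further decrease or no large difference. Between 0.5 and 2 h the median difference was -0.63 in WT and -0.33 in RNAi-21, with 90 genes below their 0.5 h level in WT, 74 in RNAi-21 and 72 in both. Of all genes tested, 53.5% were below it in WT, 52.4% in RNAi-21 and 41.1% in both. A further 2-fold decrease was seen for 32 genes in WT, 20 in RNAi-21 and 16 in both, where 2.59%, 2.51% and 1.51% of all genes had one. The 16 include IAA19, HB-2, RTFL21, RTFL16, SAUR65, GRF7 and PDC3, with 9 genes that have no symbol. The lowest course was that of AT1G22790, at 18.5, 8.41 and a listed 0 in WT and at 8.27, 3.40 and 0.05 in RNAi-21. Within 1 of their 0.5 h level in both genotypes were 67 genes. The 2 h minus 0.5 h differences in WT and RNAi-21 share no library. Across the 111 genes their Pearson correlation was 0.87 and their Spearman correlation 0.82, against 0.82 and 0.74 across all genes tested, and genes are not independent replicates.

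At 2 h, 3 genes were 2-fold above their 0.5 h level in both genotypes, namely SAUR46, ADS1 and AT4G36010, which were also the only 3 in WT. Of all genes tested, 4.86% were so in both and 6.68% in WT, so such a course was no more frequent in the set than over all genes. SAUR46 (AT2G37030) read 4.07, 0.35 and 2.50 in WT and 2.1, 0.44 and 3.46 in RNAi-21. ADS1 (AT4G29140), a MATE-type transporter, read 26.7, 10.5 and 22.0 in WT and 25.5, 11.4 and 30.0 in RNAi-21. AT4G36010 read 12.2, 4.95 and 14.7 in WT and 13.2, 5.37 and 13.9 in RNAi-21, and was the only gene of the set at or above its dark level at 2 h in both genotypes, where 33.6% of all genes were. Together with AT5G19190, at 104, 39.8 and 65.1 in WT and 86.4, 41.7 and 94.7 in RNAi-21, these made up the 4 genes less than 2-fold below darkness at 2 h in both. Another 5 genes were 2-fold above their 0.5 h level in RNAi-21 alone, among them EXO, SAUR57 and SAUR6, so that 8 were in that genotype, a share near the 6.49% of all genes. SAUR57 (AT3G53250) went from 7.04 to 0.41 and 1.76 in WT and from 5.93 to 0.43 and 3.49 in RNAi-21. SAUR6 (AT2G21210) went from 31.3 to 6.81 and 8.02 in WT and from 27.7 to 8.02 and 25.8 in RNAi-21. In RNAi-21 its 2 h level was therefore close to the dark level, and in WT it was not. The locus of SAUR6 overlaps that of SAUR7, which was at 4.44% of its dark level at 2 h in WT and at 14.1% in RNAi-21, so the division of reads between them is uncertain.

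**Figure D4:**
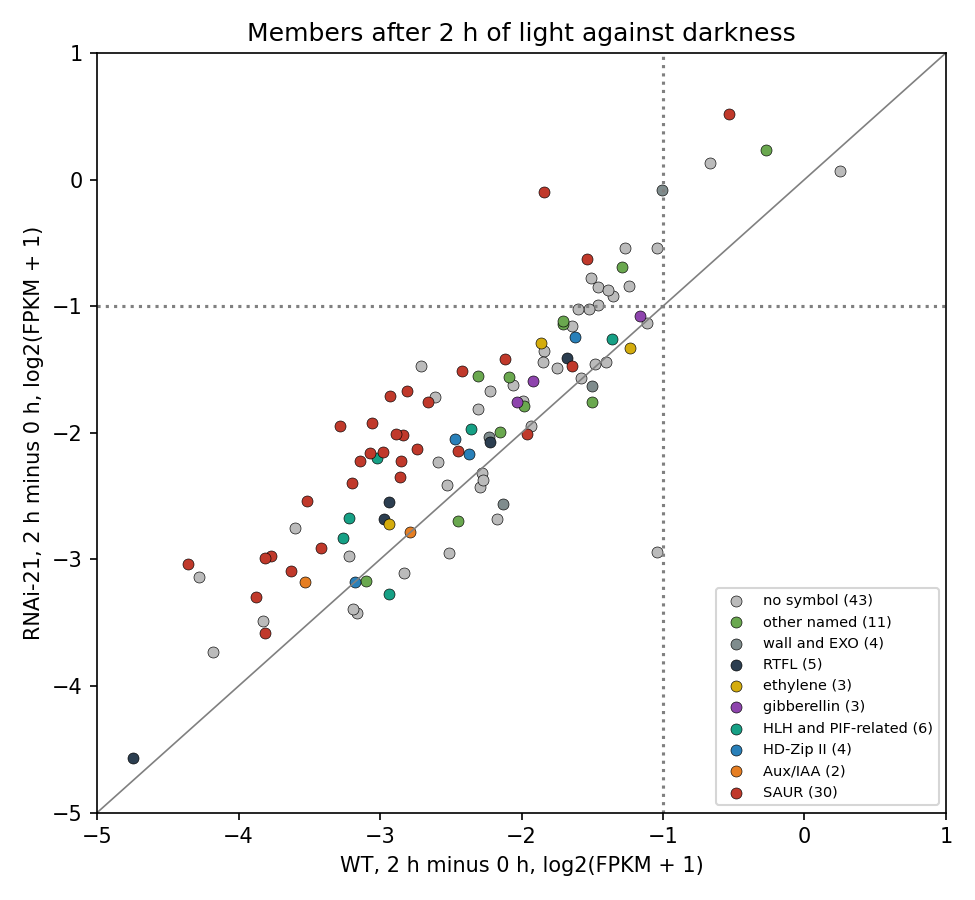
Each point is 1 of the 111 genes, with its 2 h minus 0 h difference in log2(FPKM + 1) in WT on the horizontal axis and in RNAi-21 on the vertical axis, dotted lines at -1 and a diagonal of equal differences. Most points lie at the lower left, 12 lie at or below -1 in WT only, and SAUR points (red) lie above the diagonal with the exception of SAUR9.

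Genes that passed the 0.5 h threshold in a single genotype differed in this respect, as a description. The 91 genes lower in WT only had a median 2 h difference from darkness of -1.12 in WT and -0.44 in RNAi-21, and 27 of them were 2-fold lower at 2 h in both genotypes. The 56 genes lower in RNAi-21 only had medians of -1.43 and -1.33, and 31 of them were 2-fold lower in both. Over all genes tested, 3.04% were. Each subset was chosen on the 0 h libraries that these 2 h differences also use, so the differences between the genotypes carry that choice.

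The comparison of RNAi-21 with WT at 2 h uses libraries that the 0.5 h rule did not use. The FPKM filter used all 6 libraries, and without it the set was the same 111 genes. In darkness 52 of the 111 genes were higher in RNAi-21 and 59 lower, where 48.6% of all genes were higher, and the median difference was -0.01. At 2 h RNAi-21 was the higher for 92 genes and the lower for 19, and the median difference was 0.41. Over all genes tested, 47.1% were above WT at that time and the median difference was -0.02. Among the 91 genes lower at 0.5 h in WT only, 73.6% were above WT in RNAi-21 at 2 h, and among the 56 lower in RNAi-21 only, 60.7% were. With 1 library per group, the difference between these shares has no test.

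The SAUR genes had the larger differences. For all 30 SAUR genes of the set RNAi-21 was above WT at 2 h, by 0.18 to 1.57 and by 0.81 at the median. At 0.5 h, a time whose libraries the rule used, RNAi-21 was again above WT for all 30, where 45.5% of all genes were, and in darkness for 14 of 30. At 2 h, 8 genes of the set were 2-fold higher in RNAi-21 and none was 2-fold lower, where 0.575% of all genes were 2-fold higher and 0.222% 2-fold lower. All 8 were SAUR genes. With a pseudocount of 0.1, under which the set grew to 157 genes, 35 were 2-fold apart between the genotypes, so the count rests on the pseudocount. SAUR6 differed by 1.57, with 8.02 in WT and 25.8 in RNAi-21. SAUR27 differed by 1.5, with 1.66 and 6.52, SAUR63 by 1.17, with 0.90 and 3.26, and SAUR20 by 1.15, with 2.35 and 6.44. Without the SAUR family, RNAi-21 was above WT at 2 h for 62 of 81 genes, and the median difference was 0.29. The 38 SAUR genes tested that are outside the set are genes the 0.5 h rule did not take. For 33 of them the RNAi-21 level was above WT at 2 h (median difference 0.29), where in darkness it was for 17. Many of these 38 are low, with a median FPKM at 2 h of 2.44 in WT and 3.76 in RNAi-21. SAUR69 reached an FPKM of 1 only in the RNAi-21 library at 2 h, at 1.38. All 68 SAUR genes listed were tested, so the filter removed none. Of all 68 SAUR genes tested, 63 were above WT in the 2 h RNAi-21 library, 64 after median-ratio scaling, and 59 after nuclear genes alone were scaled to equal totals, a scaling in which 32.9% of all genes were. At the other end, AT1G31772 was lowest in RNAi-21 relative to WT at 2 h, at -0.9, with 1.62 in WT and 0.41 in RNAi-21. AT5G44260, LRX2 and AT4G10150 were the next lowest, with LRX2 at -0.52.

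**Figure D5:**
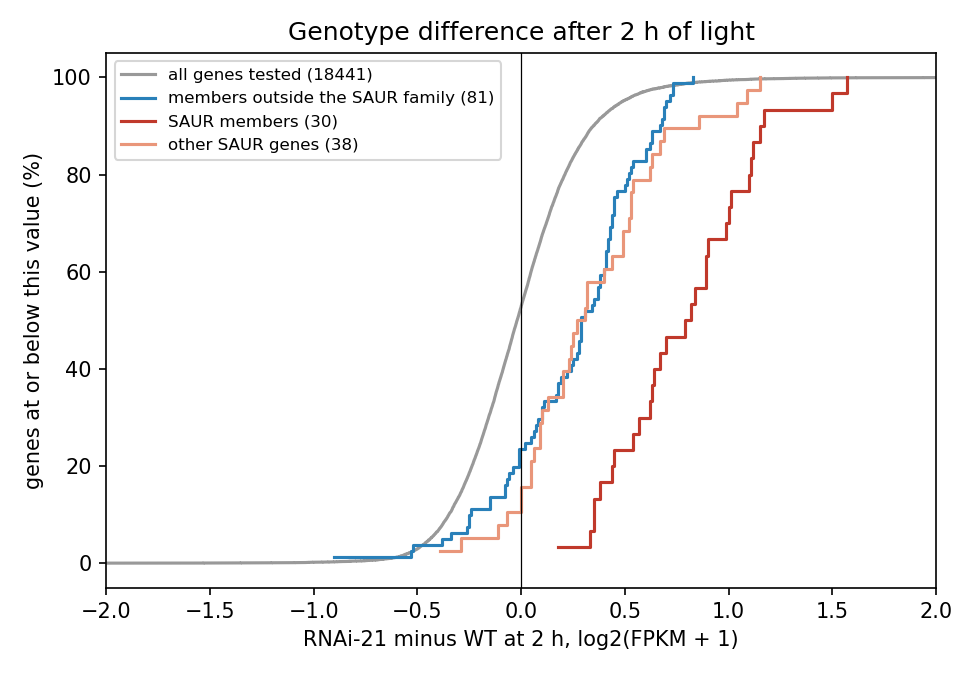
Cumulative share of genes, in percent, against the RNAi-21 minus WT difference at 2 h in log2(FPKM + 1), for all genes tested (grey), the 81 genes of the set outside the SAUR family (blue), the 30 SAUR genes of the set (red) and the 38 other SAUR genes (light red). The curve of the 30 SAUR genes lies wholly to the right of 0, from 0.18 to 1.57.

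The genotype effect over the 3 times was tested with limma, which fitted genotype and light time as additive terms to all 18441 genes. None of the 111 genes passed at an adjusted p of 0.05, and 0.168% of all genes did. At an unadjusted p under 0.05 there were 28 of the 111 genes, 22 of them higher in RNAi-21. Of all genes, 12.4% had such a p in limma, and 1151 of these 2294 were higher in RNAi-21. The SAUR family held 14 of the 28, all higher, and of the 14 outside it 8 were higher. The fit includes the 0 h and 0.5 h libraries that the rule used. Without the 0 h libraries 4 of the 111 genes passed (SAUR19, SAUR20, SAUR28 and SAUR63, of 176 calls over all genes), and without the 0.5 h libraries 2 did (SAUR16 and SAUR27, of 155). The smallest p was that of SAUR9 (AT4G36110), higher by 0.49 ± 0.11 (SE, adjusted p = 0.19 in limma) and higher in RNAi-21 at all 3 times. GA3OX1 was higher by 0.40 ± 0.10 (adjusted p = 0.22, limma) and AT5G44260 had an effect of -0.47 ± 0.11 (adjusted p = 0.21, limma). The SE in this fit measures how unequal the genotype difference was from time to time, on 2 residual degrees of freedom, so a difference seen in light but not in darkness makes it larger.

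The families of these genes were followed beyond the set. The light effect at 2 h came from the same limma fit, in which 15.8% of all genes fell and 17.1% rose against 0 h with an adjusted p under 0.05. For this term each time has 1 WT and 1 RNAi-21 library, so its error measures how alike the light difference was in the genotypes. It holds no replicate of either genotype. The test also uses the 0 h libraries that chose the set, so the counts for genes outside the set are given beside those for each whole list. In the SAUR family, 40 of 68 genes tested fell and 9 rose. Of its 38 genes outside the set, 12 fell and the same 9 rose. SAUR11 had a 2 h effect of -3.13 ± 0.15 (adjusted p = 2.9e-05, limma) with differences at 0.5 h of -0.79 in WT and -0.49 in RNAi-21. SAUR35 rose by 1.41 ± 0.23 (adjusted p = 0.0032, limma), and SAUR14 by 0.86 ± 0.27 (adjusted p = 0.048, limma).

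In the Aux/IAA family, 12 of 24 genes fell and 3 rose at 2 h, and of the 22 outside the set 10 fell and 3 rose. IAA6 stayed just outside the set with -1.5 in WT and -0.99 in RNAi-21 at 0.5 h, and IAA28 rose by 3.18 ± 0.15 at 2 h (adjusted p = 2.5e-05, limma). Of 22 genes in the list of shade and PIF-related genes, 8 were in the set, 13 fell and 4 rose at 2 h. Of the 14 outside the set, 5 fell and 4 rose. XTH15, a shade-induced wall enzyme, had a 2 h effect of -3.15 ± 0.17 but was less than 2-fold lower at 0.5 h, with 921 in dark WT and 695 at 0.5 h. STO, also called BBX24, rose by 4.00 ± 0.21, and PIF4, PIL6 and PIF7 rose by 0.92, 0.98 and 1.36. PIF7 had an FPKM of 0.33 in dark WT and 0.43 in dark RNAi-21. It reached the filter only in the 2 h libraries, at 2.77 and 2.32, so its rise carries the filter. The PIF genes themselves were not in the set, and PIF3 had a 2 h effect of 0.17 ± 0.16 (adjusted p = 0.47, limma).

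In the RTFL family 11 of 17 genes fell and 2 rose, RTFL5 and RTFL12, and of the 12 outside the set 6 fell. Of 32 gibberellin and brassinosteroid genes, 5 were in the set, 14 fell and 5 rose, and of the 27 outside it 9 fell and 5 rose. BAS1, which inactivates brassinosteroids, had an effect of -2.34 ± 0.13, and GA2OX1, which inactivates gibberellins, rose by 3.91 ± 0.33 and GA3OX2, of gibberellin synthesis, by 3.42 ± 0.15. GA3OX2 had an FPKM of 0.12 in dark WT and 0.13 in dark RNAi-21. It reached the filter only at 2 h, at 10.6 and 11.4, so its rise carries the filter. GA3OX1, of the same enzyme family as GA3OX2, was at 39.1% of its dark level in WT and 43.2% in RNAi-21 at that time. Of 12 ethylene synthesis genes, 2 were in the set, 3 fell and 1 rose, and of the other 10 genes 1 fell and 1 rose.

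The lists that follow were matched by name, and some still hold loci of other families. Genes of a family under other names were missed, such as PIL1 and HBI1 in the bHLH list. Their counts are therefore not exact family counts. The homeobox list had 6 of 47 genes in the set, and of its 41 others 8 fell and 10 rose at 2 h. The list of numbered bHLH genes had 2 of 9, and of its 7 others 4 fell and 0 rose. The XTH list had 1 of 27, and of its 26 others 10 fell and 6 rose. Other wall genes had 2 of 83, and of their 81 others 32 fell and 9 rose. Starvation and EXO genes had 1 of 27, and of their 26 others 15 fell and 4 rose. No gene of the set came from the GH3 list (5 of 6 fell and 1 rose at 2 h), the LBD list (8 and 2 of 20), the expansins (9 and 4 of 19) or the other peptide families (12 and 12 of 52). None came from the ERF list (0 and 9 of 22), the type-A response regulators (0 and 2 of 9), the clock list (1 and 11 of 14), the calcium, touch and JAZ list (7 and 14 of 49) or the MAPKKK list (1 and 5 of 17). The ERF list was matched by symbol and does not hold ESE3, so whether the set holds other genes of that family was not tested. None came from the WRKY (15 and 12 of 55), NAC (8 and 11 of 52) and MYB (12 and 27 of 80) lists, the ZAT, DOF, TCP and GATA list (5 and 17 of 52) or small nuclear and nucleolar RNA genes (1 and 0 of 9).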

How the data were processed

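RNA was measured in 6 libraries, 1 per group. The deposited values were read as FPKM, computed by the authors before deposit. The unit is inferred from non-integer values, unequal sums and Cufflinks-type locus names, and no header names it. HISAT and Bowtie2 appear, without version, in the submitters' processing notes, while the sources used here name no quantification tool, genome build or annotation. Library sums of FPKM ran from 757504 to 891009. Read depth is unknown, so no counting interval is given. Identifiers of 19532 of 19763 listed genes matched the RefSeq TAIR10.1 table, used for names, lengths and gene order, and for 109 of the 111 genes.

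Values were transformed as log2(FPKM + 1), which understates changes of low genes, after a filter of FPKM 1 in any library. Differences of single libraries have no test. limma 3.58.1 in R 4.3.3, with a variance trend and Benjamini-Hochberg adjustment, gave genotype and light effects (2 residual and 4.93 prior degrees of freedom). It was tested on simulated data. Python 3.11.15 with pandas 2.3.3 was used otherwise. The genes and lists were chosen with earlier results of these data known. Lists were matched by symbol or synonym, and some loci whose synonym belongs to another family were removed. Others remain, among them HB1 (AT2G16060) and HB2 (AT3G10520) in the homeobox list. CIPK15 remains in the starvation list and AT1G29910 in the list of other wall genes. Genes of a family under other names were not matched. The list counts are therefore not exact family counts. The genes to be named were the 10 with the lowest 0.5 h difference, the 8 with the highest dark level, the 6 at each end of the 2 h minus 0.5 h difference, the 4 at each end of the genotype difference at 2 h, up to 4 per list and the 3 on each side of the threshold. Of these, AT3G06750, AT4G21745 and AT5G02580 were not described above. Further genes were named after their values were seen. As alternatives, the pseudocount was set to 0.1, the filter to 5 or removed, libraries were scaled by median ratios or by equal totals of nuclear genes, the variance trend was dropped, and the libraries of each time were left out in turn.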

Additional observations from a re-analysis of the deposited data

Results flagged for a closer look

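In 3 genes of the set the 2 h difference from darkness had opposite signs in the genotypes. It was -0.53 in WT and 0.52 in RNAi-21 for SAUR46, -0.27 and 0.23 for ADS1, and -0.67 and 0.13 for AT5G19190, on the log2(FPKM + 1) scale. In the set, 107 genes were below darkness at 2 h in both genotypes and 1 was at or above it in both. Over all 18441 genes tested, 7236 were below darkness in both and 6189 at or above it in both. Opposite signs were thus less frequent in the set than over all genes. Each value is 1 library against 1 library, so whether the genotypes differ was not tested.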

How the results depend on the processing

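The set of 111 genes became 157 with a pseudocount of 0.1, 102 with a filter of 5 and 98 with organelle genes left out and totals equalised, and 111, 102 and 98 of those, in the same order, were shared with it. With median-ratio scaling 110 were shared. That equalised scaling moved the median of all genes at 2 h to -0.19 in RNAi-21 against darkness and to -0.12 for RNAi-21 minus WT. Genes 2-fold below darkness at 2 h numbered 140 in WT, 129 in RNAi-21 and 126 in both with a pseudocount of 0.1, in the larger set, and from 95 to 107 in WT and from 87 to 95 in RNAi-21 with the other filters and scalings. The medians against darkness kept their direction, from -2.40 to -2.28 in WT and from -2.13 to -1.92 in RNAi-21. The median difference of RNAi-21 minus WT at 2 h was 0.45 with a pseudocount of 0.1, 0.34 with totals equalised and 0.29 with the SAUR family left out, a setting added after seeing the data. Genes of the set 2-fold apart between the genotypes at 2 h were 35 with a pseudocount of 0.1 and 0 with the SAUR family left out. In limma, 1 gene was called for genotype with a pseudocount of 0.1, U4.2, which joined the set in that setting. Without the 0 h libraries 4 were called (SAUR19, SAUR20, SAUR28 and SAUR63, of 176 calls over all genes), and without the 0.5 h libraries 2 (SAUR16 and SAUR27, of 155), each on 1 residual degree of freedom. Without the 2 h libraries and without a variance trend the count was 0. The causes were not tested. No paired analysis was possible because the labels give no replicate numbers and each group is 1 library.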
